A study of Mus musculus with 4 samples.

Results

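The variable part of the T cell receptor alpha chain is encoded by V and J gene segments that lie in a row on mouse chromosome 14. All genes whose name begins with Trav or Traj were taken, which gave 190 of the 55487 genes in the deposited tables. They comprised 120 V segments named Trav only, 10 V segments whose name also carries dv, and 60 J segments. All 190 lay on the plus strand, the V segments before the J segments. The GENCODE M21 annotation called 110 of them V genes, 20 V pseudogenes, 51 J genes and 9 J pseudogenes.

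RNA had been measured in 4 libraries labelled as regulatory T cells of mouse skin. The UVB group held 2 libraries from mice that received narrow-band ultraviolet B (NB-UVB) 3 times, on alternate days. The non-UVB group held 2 libraries from mice without that exposure. Both groups are described as having shaved backs and daily application there of 60 mg of a cream with 5% imiquimod, a Toll-like receptor 7 agonist used to raise a psoriasis-like dermatitis. Mouse strain, age, sort and number of animals behind a library are not given. Since no source used here calls the libraries separate animals, the p-values speak only of the variation among these 4 libraries, which may be technical.

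In developing thymocytes, recombination joins a V segment to a J segment of the alpha locus, and splicing joins the result to the constant gene Trac. A mature T cell keeps its joined V and J for life, and its daughter cells inherit them. The V and J segments seen in RNA from many T cells can therefore reflect which receptors those cells carried. Whether the RNA of a segment here came from a joined receptor chain was not tested. V segments with dv in their name can be joined either to J segments of the alpha locus or to segments of the delta locus, which lies between the alpha V and J segments.

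J segments among the 3 leaders of a library, those tested whose groups did not overlap, and Traj8 as a pseudogene with signal are printed here from GENCODE M21 transcripts (GRCm38, plus strand, 5′ to 3′), because a J segment is short enough to be read whole. Capitals mark the motif TTNGG followed by any 4 bases and GG. With T or C at N, and in frame, it encodes the phenylalanine-glycine motif at the start of the last strand of the variable domain. The letters were searched on both strands, and the reading frame was not examined.
Traj58 at chr14:54157280-54157342: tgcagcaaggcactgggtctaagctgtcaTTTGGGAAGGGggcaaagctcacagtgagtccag
Traj54 at chr14:54161990-54162043: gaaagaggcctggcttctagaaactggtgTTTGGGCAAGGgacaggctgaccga
Traj52 at chr14:54165316-54165381: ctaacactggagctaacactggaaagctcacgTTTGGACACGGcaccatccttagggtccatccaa
Traj37 at chr14:54181518-54181577: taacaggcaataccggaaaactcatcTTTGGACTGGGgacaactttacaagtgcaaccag
Traj32 at chr14:54186101-54186166: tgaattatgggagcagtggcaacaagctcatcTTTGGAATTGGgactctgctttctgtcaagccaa
Traj30 at chr14:54189866-54189924: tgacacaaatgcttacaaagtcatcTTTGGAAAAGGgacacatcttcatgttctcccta
Traj27 at chr14:54192303-54192361: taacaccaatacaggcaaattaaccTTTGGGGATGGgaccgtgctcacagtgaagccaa
Traj26 at chr14:54194490-54194549: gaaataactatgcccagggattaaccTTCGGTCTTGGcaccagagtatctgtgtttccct
Traj20 at chr14:54199441-54199498: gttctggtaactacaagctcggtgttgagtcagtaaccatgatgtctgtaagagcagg
Traj19 at chr14:54200386-54200446: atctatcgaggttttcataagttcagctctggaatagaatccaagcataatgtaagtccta
Traj18 at chr14:54200777-54200842: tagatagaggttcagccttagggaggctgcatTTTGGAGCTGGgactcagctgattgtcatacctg
Traj17 at chr14:54201775-54201837: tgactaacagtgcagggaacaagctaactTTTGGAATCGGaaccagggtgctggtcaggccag
Traj8 at chr14:54209918-54209954: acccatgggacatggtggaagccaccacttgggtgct
Traj2 at chr14:54217836-54217901: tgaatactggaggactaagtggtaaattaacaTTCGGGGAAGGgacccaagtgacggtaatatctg
The motif was found on the plus strand in 46 of the 60 J segments, or 76.7%, and in none on the other strand. It was in 44 of the 51 segments annotated as J genes and in 2 of the 9 J pseudogenes. For scale, 5 of 1392 windows of 60 bases cut from V transcripts held it on either strand, or 0.359%. Traj38, Traj44 and Traj55 have G in place of N, so these are counts of letters and not of phenylalanine-glycine motifs. Traj20 and Traj19 above are annotated as J genes without these letters, and Traj54 is annotated as a pseudogene that has them.

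V segments of this locus exist in duplicated copies, named with d, with n or with neither letter. For 3 of them, the window of 60 bases with most differences among the copies is printed, from the same annotation and strand, with the differing positions in capitals. For these 3 the libraries differed in which copy carried the signal, as they did for others not printed, such as Trav13-2 and Trav7-4.
Trav4d-4 at chr14:52991261-52991320: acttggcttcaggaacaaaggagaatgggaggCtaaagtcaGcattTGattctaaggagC
Trav4n-4 at chr14:53302431-53302490: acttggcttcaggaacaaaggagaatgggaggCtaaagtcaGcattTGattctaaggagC
Trav4-4-dv10 at chr14:53684049-53684108: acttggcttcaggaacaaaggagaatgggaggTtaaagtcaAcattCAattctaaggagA
Trav7d-5 at chr14:52836288-52836347: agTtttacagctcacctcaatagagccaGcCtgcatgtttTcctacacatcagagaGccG
Trav7n-5 at chr14:53147349-53147408: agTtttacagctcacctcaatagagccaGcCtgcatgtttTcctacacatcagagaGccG
Trav7-5 at chr14:53531214-53531273: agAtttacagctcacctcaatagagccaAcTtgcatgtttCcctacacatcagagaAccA
Trav14d-3-dv8 at chr14:53078967-53079026: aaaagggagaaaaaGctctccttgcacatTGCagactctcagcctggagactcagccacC
Trav14n-3 at chr14:53370497-53370556: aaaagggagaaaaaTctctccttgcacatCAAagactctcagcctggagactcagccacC
Trav14-3 at chr14:53763616-53763675: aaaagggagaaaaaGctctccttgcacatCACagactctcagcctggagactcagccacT

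The depth of the libraries, read from their deposited coverage and FPKM, was 4.20 and 2.38 gigabases in UVB replicates 1 and 2, and 3.41 and 2.47 gigabases in non-UVB replicates 1 and 2. A segment covered once along its length would have 0.369 and 0.612 TPM with UVB, against 0.442 and 0.583 TPM without. TPM is a transcript level scaled to gene length and to the same total in each library. Trac was present in all 4 libraries, at 554 and 878 TPM with UVB and at 274 and 2350 TPM without. Gamma-delta chain genes were high in both libraries numbered 1. The 8 genes on that list summed to 8350 and 302 TPM with UVB, against 8945 and 175 TPM without, and the delta constant gene Trdc had 1184 and 71.6 TPM with UVB, against 1394 and 48.5 TPM without. Foxp3, the defining factor of regulatory T cells, had 3.49 and 19.3 TPM in the UVB libraries and 0 and 19.4 TPM in the non-UVB libraries, so it was listed at 0 in non-UVB replicate 1. The other genes of that list had 0.068 TPM (Ikzf2), 314 TPM (Ctla4) and 248 TPM (Il2ra) in that library, and all 4 summed to 703 and 1837 TPM with UVB, against 563 and 2070 TPM without. Of the B cell genes Cd79a, Cd79b and Ms4a1, Cd79b had 21.2 and 40.0 TPM with UVB, against 61.9 and 18.5 TPM without, and the other 2 were listed at 0 in all libraries. Keratinocyte genes summed to 282 and 1596 TPM with UVB against 144 and 1911 TPM without, and myeloid genes to 13484 and 7283 TPM against 6978 and 3640 TPM. None of the genes of these lists that were tested passed the limma test between groups. A value of 0 in these tables is not proof of absence, because Xrcc5, a DNA repair gene used by all cells, was also listed at 0 in all 4 libraries. In bulk RNA, fewer cells of a type and less RNA per cell cannot be told apart.

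The summed level of the alpha segments ordered the libraries as Trac did. The 120 Trav segments together had 251 and 576 TPM in the UVB libraries, against 143 and 898 TPM in the non-UVB libraries. The 60 Traj segments had 231 and 443 TPM with UVB, against 101 and 789 TPM without. In both classes the UVB libraries lay between the non-UVB libraries. The log2 difference, UVB over non-UVB, was 0.09 for Trav and 0.18 for Traj (exact two-sided permutation test over 2 against 2 libraries, p = 1 for each). With groups of 2 this test cannot give a p below 0.333. The sign depends on the scale, since means of TPM were lower with UVB, 414 ± 230 against 520 ± 534 TPM for Trav and 337 ± 149 against 445 ± 486 TPM for Traj (SD, n = 2 each). Leaving out non-UVB replicate 1 turned these log2 differences to -1.24 and -1.30, and leaving out UVB replicate 2 turned them to -0.51 and -0.29. They were 1.42 and 1.67 once non-UVB replicate 2 was left out and 0.69 and 0.65 once UVB replicate 1 was.

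**Figure D1:**
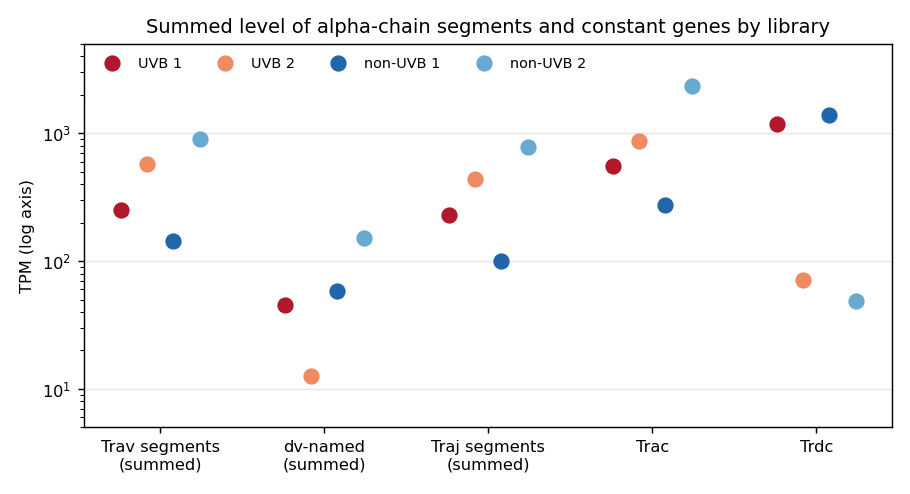
Summed TPM (log axis) of the Trav, dv-named and Traj segments and the TPM of Trac and Trdc, with 1 point per library. Trav, Traj and Trac share the same order of libraries, with non-UVB replicate 1 lowest and non-UVB replicate 2 highest, while Trdc is at 1184 and 1394 TPM in both libraries numbered 1 and far lower in both libraries numbered 2.

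Set against the constant gene, the segments ranged less than they did in TPM. All V segments together, dv included, had 0.536 and 0.671 times the level of Trac with UVB, against 0.733 and 0.447 times without, so the groups overlapped. The J segments had 0.418 and 0.504 times the level of Trac with UVB, against 0.368 and 0.336 times without. Both UVB libraries were above both non-UVB libraries for this ratio, 0.461 ± 0.061 against 0.352 ± 0.023 (SD, n = 2 each), with an exact two-sided permutation p of 0.333, the smallest the design allows. The J segments are 29 to 72 bases long, so a read of 100 bp cannot lie wholly within one. How far this affects their TPM was not examined.

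Few of the segments carried signal in any given library. At 1 TPM or more there were 23 and 23 Trav segments with UVB, against 7 and 25 without. For Traj there were 13 and 13 segments with UVB, against 4 and 18 without. The effective number of segments, the inverse of the sum of squared shares, says how many equally used segments would give the same spread. For Trav it was 18.0 and 10.6 with UVB, against 4.26 and 12.6 without, a difference of 5.90 with overlapping groups (exact two-sided permutation p = 0.667). For Traj it was 9.92 and 6.93 with UVB, against 3.46 and 11.1 without, a difference of 1.15 (p = 1, same exact test). Non-UVB replicate 1 had the fewest segments by both measures, and without it the differences were 1.73 for Trav and -2.66 for Traj. With UVB replicate 1 left out they were 2.22 for Trav and -0.35 for Traj, with UVB replicate 2 left out 9.57 and 2.65, and with non-UVB replicate 2 left out 10.1 and 4.96.

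Traj18 led both libraries numbered 2, and the other leading J segments differed between libraries. In UVB replicate 1, Traj30 took 16.6% of the J signal, Traj26 took 13.7% and Traj20 took 11.8%. In UVB replicate 2, Traj18 took 24.9%, Traj32 took 17.0% and Traj58 took 15.3%. The UVB libraries thus shared none of their 3 leading J segments. In non-UVB replicate 1, Traj2 alone took 41.7%, followed by Traj54 with 25.3% and Traj17 with 16.4%. In non-UVB replicate 2, Traj18 led with 16.6%, followed by Traj52 with 12.4% and Traj37 with 10.2%. The 3 leading segments summed to 42.2% and 57.3% in the UVB libraries and to 83.4% and 39.1% in the non-UVB libraries. The share of the single top J segment had a mean difference, UVB minus non-UVB, of -8.34 percentage points (exact two-sided permutation p = 1), and of 4.24 points once non-UVB replicate 1 was left out.

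**Figure D2:**
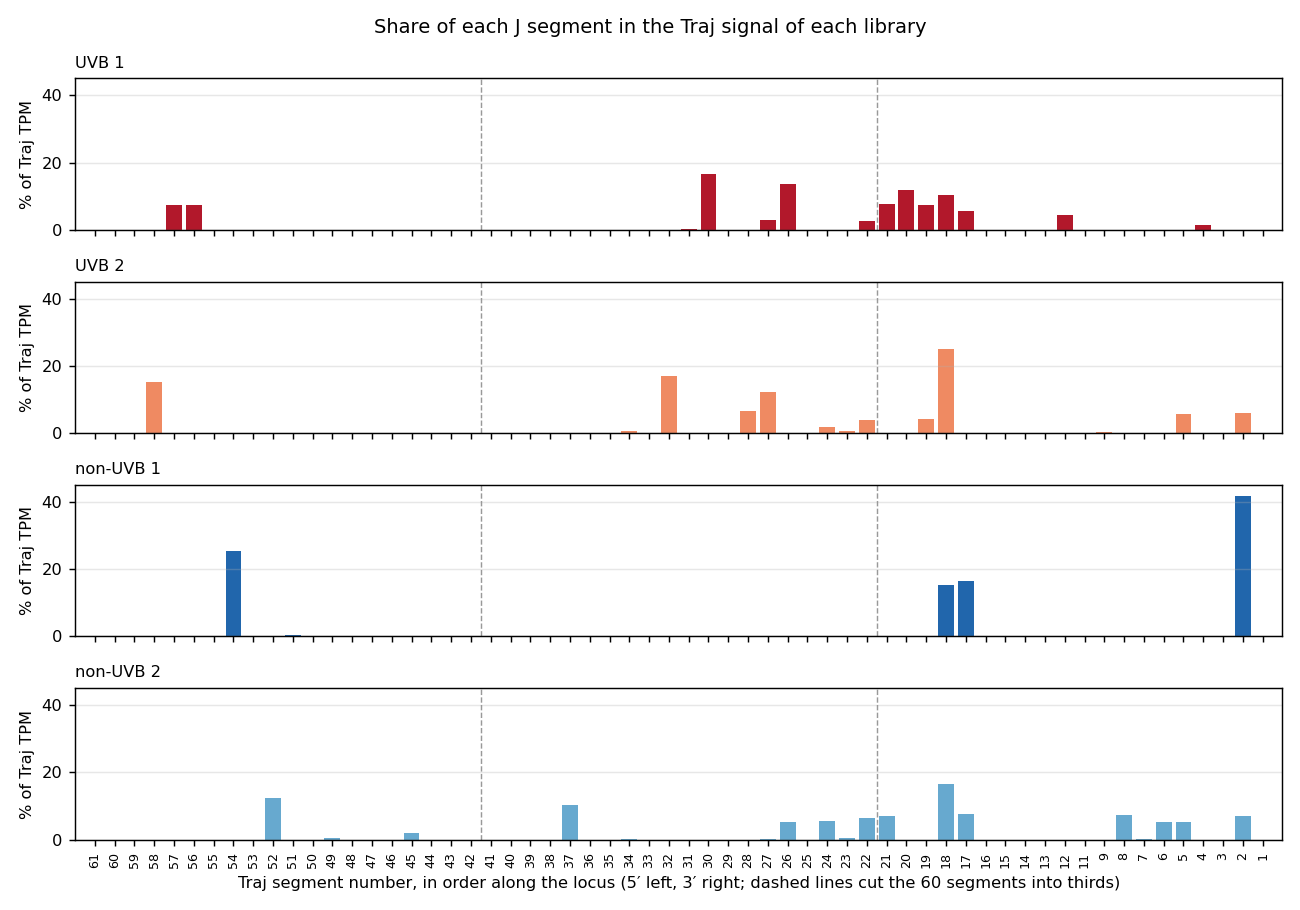
Percent of the Traj TPM of each library taken by each of the 60 J segments, in their order along the locus, with 1 panel per library. Tall bars stand at different segments in each panel, from 41.7% for Traj2 in non-UVB replicate 1 downwards, and Traj18 is the only segment with at least 10% in all 4 panels.

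Several J segments were strong in a library and listed at 0 in the others. Traj30 had 38.5 TPM in UVB replicate 1 and 0 in UVB replicate 2 and in both non-UVB libraries. Traj32 had 75.4 TPM in UVB replicate 2 and 0 in the other 3 libraries, and Traj28 likewise had 29.3 TPM there alone. Traj57 had 17.2 TPM in UVB replicate 1 alone. Among the non-UVB libraries the same held for Traj54 with 25.6 TPM in replicate 1, and for Traj52 with 97.7 TPM, Traj37 with 80.3 TPM, Traj8 with 57.5 TPM and Traj6 with 41.4 TPM in replicate 2. Traj58, at 67.8 TPM in UVB replicate 2, and Traj56, at 17.0 TPM in UVB replicate 1, each had under 1 TPM in a further library.

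The J segments that took at least 5% of a library and were shared by groups lay mostly in the neighbourhood of Traj18. Traj26 had 31.8 and 0 TPM with UVB, against 0.287 and 40.5 TPM without. Traj21 had 17.8 and 0.548 TPM with UVB, against 0 and 56.5 TPM without. Traj22 had 6.40 and 17.0 TPM with UVB, against 0 and 51.3 TPM without. In these 3 the highest value was in non-UVB replicate 2 and non-UVB replicate 1 was below 1 TPM. Traj24, with 0 and 8.12 TPM with UVB against 0 and 44.5 TPM without, and Traj5, with 0 and 25.0 TPM with UVB against 0 and 40.7 TPM without, were seen in the 2 libraries numbered 2 alone.

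Traj18, the J segment of the invariant chain of natural killer T cells, was the J segment with 1 TPM or more in all 4 libraries. It had 24.1 and 110 TPM in the UVB libraries, against 15.6 and 131 TPM in the non-UVB libraries, with overlapping groups. Its share of the J signal was 10.4% and 24.9% with UVB, against 15.4% and 16.6% without. The V segments that pair with it in that invariant chain, Trav11 and Trav11d, were listed at 0 in all 4 libraries. Zbtb16, the lineage factor of those cells, had 0 and 0.022 TPM with UVB against 4.77 and 0 TPM without, and the receptors Klrb1c and Klrb1a and the factor Tbx21 were at 0 throughout. For the invariant chain of mucosal-associated T cells, the V segment Trav1 had 17.5 TPM in UVB replicate 1 and 0 in the other 3 libraries. Its J partner Traj33 was listed at 0 in all 4. Of the 13 genes of both innate-like lineages, 3 were at 0 in all libraries, and the list summed to 337 and 153 TPM with UVB against 526 and 508 TPM without. Of these 13 genes 8 were tested and 0 passed.

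Position along the locus was compared by dividing the 60 J segments into 3 runs of 20 in genomic order. The run nearest the V segments, Traj61 to Traj42, took 14.8% and 15.6% of the J signal with UVB, against 25.9% and 15.0% without. The middle run, Traj41 to Traj22, took 36.3% and 43.1% with UVB, against 0.523% and 28.5% without. The run nearest Trac, Traj21 to Traj1, took 48.9% and 41.4% with UVB, against 73.5% and 56.5% without. The groups did not overlap for the middle run, which was higher with UVB, or for the last run, which was lower with UVB, and no test was made of either. The runs are parts of the same total, so these separations are linked. Groups likewise did not overlap, in either direction, for 32.9% of all genes tested. In non-UVB replicate 1 the middle run had 0 segments at 1 TPM or more. The mean difference for the first run was -5.31 percentage points, and 0.14 points without non-UVB replicate 1. The 6 neighbours Traj22 to Traj17 alone took 45.8% and 33.3% with UVB, against 31.8% and 37.8% without.

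J segments annotated as pseudogenes had signal in the non-UVB libraries. Their share of the J signal was 0% in both UVB libraries, compared with 25.8% and 7.29% without UVB. In non-UVB replicate 1 this was almost wholly Traj54, which holds the motif in the sequence printed above, and in replicate 2 it was Traj8, which is 37 bases long. Of the V pseudogenes, Trav9n-1 had 4.69 TPM in non-UVB replicate 1, or 2.33% of its V signal, and the V pseudogenes were at 0 in the other 3 libraries. Over V and J together the pseudogene share was 0% and 0% with UVB, against 10.2% and 3.13% without, and the mean difference of -6.65 percentage points became -10.2 once non-UVB replicate 2 was left out and -3.13 once non-UVB replicate 1 was. J genes that lack the motif showed the other order, with 19.2% and 4.29% of the J signal with UVB, against 0% and 0.069% without. In the UVB libraries that signal was Traj20, at 27.4 and 0.781 TPM with UVB and 0 in both non-UVB libraries, and Traj19, described with the group comparison.

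The V segments varied in the same way from library to library. Trav14-3 led UVB replicate 1 with 9.84% of the Trav signal, ahead of Trav2 with 8.06% and Trav1 with 6.98%. Trav17 led UVB replicate 2 with 23.1%, ahead of Trav5-1 with 8.20% and Trav5-4 with 7.39%. The identical copies Trav4d-4 and Trav4n-4 led non-UVB replicate 1 with 29.6% each, ahead of Trav9-1 with 21.7%. Trav7-5 led non-UVB replicate 2 with 15.0%, ahead of Trav3-3 with 13.4% and Trav9-2 with 8.03%. With copies summed and dv included, Trav4-4 led UVB replicate 1 with 17.6% of all V signal and non-UVB replicate 1 with 44.7%. On the same footing, Trav17 led UVB replicate 2 with 22.7% and Trav3-3 led non-UVB replicate 2 with 22.5%. Below these leaders, Trav7-5 took 14.1% in UVB replicate 2 and 12.8% in non-UVB replicate 2. The top Trav share had a mean difference, UVB minus non-UVB, of -5.77 percentage points (exact two-sided permutation p = 0.667). This was 1.54 points once non-UVB replicate 1 was left out and 0.88 points once UVB replicate 1 was, against -12.4 and -13.1 points for UVB and non-UVB replicate 2. With d and n copies added to the undecorated Trav name the difference was -24.9 points (exact two-sided permutation p = 0.333, the smallest possible). Summing joined the 2 identical copies that led non-UVB replicate 1. It also joined the 3 copies of Trav3-3, which came to 236 TPM in non-UVB replicate 2. With dv included the difference was -3.06 points.

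Some of these leaders were seen in a single library. Trav17 had 133 TPM in UVB replicate 2, with 0 in UVB replicate 1 and with 0.25 and 0 TPM in the non-UVB libraries. Trav2 had 20.2 TPM in UVB replicate 1 and Trav4-2 had 33.9 TPM in UVB replicate 2, each listed at 0 in the other 3 libraries. Trav4-3 had 66.4 TPM in non-UVB replicate 2 and Trav9-1 had 31.0 TPM in non-UVB replicate 1, again with 0 elsewhere. The copies Trav7d-2 and Trav7-2, at 15.8 TPM each, Trav7d-3, at 13.0 TPM, and Trav16n, at 13.9 TPM, likewise passed 1 TPM in UVB replicate 1 alone. Other V segments were shared across groups in the libraries numbered 2. Trav7d-6 had 0 and 14.4 TPM with UVB, against 0 and 45.1 TPM without, and its copy Trav7n-6 was within 1% of it in each library. Trav3d-3 had 0.062 and 17.5 TPM with UVB, against 0.033 and 58.1 TPM without, and Trav7-4 had 0.888 and 33.5 TPM with UVB, against 0 and 44.5 TPM without. Trav7n-4 was highest in UVB replicate 1, with 16.7 and 1.27 TPM with UVB, against 0 and 2.27 TPM without, and Trav13d-4 in non-UVB replicate 2, with 2.47 and 0.239 TPM with UVB, against 0 and 67.6 TPM without. Trav9-2 crossed the numbers, with 13.8 and 0 TPM in the UVB libraries, against 0 and 72.1 TPM in the non-UVB libraries.

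When segments were added up by family, the Trav7 family took 30.9% and 26.2% of all V signal with UVB, against 0% and 26.8% without. The Trav4 and Trav14 families were those with 1 TPM or more in every library. Trav4 took 17.6% and 8.7% with UVB against 44.7% and 14.2% without. Trav14 took 10.1% and 5.0% with UVB against 30.0% and 0.2% without. Trav5 took 22.8% in UVB replicate 2 and Trav9 took 25.0% in non-UVB replicate 1. Trav3 took 6.1% in UVB replicate 2, against 26.6% in non-UVB replicate 2, and under 0.1% in the 2 libraries numbered 1.

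**Figure D3:**
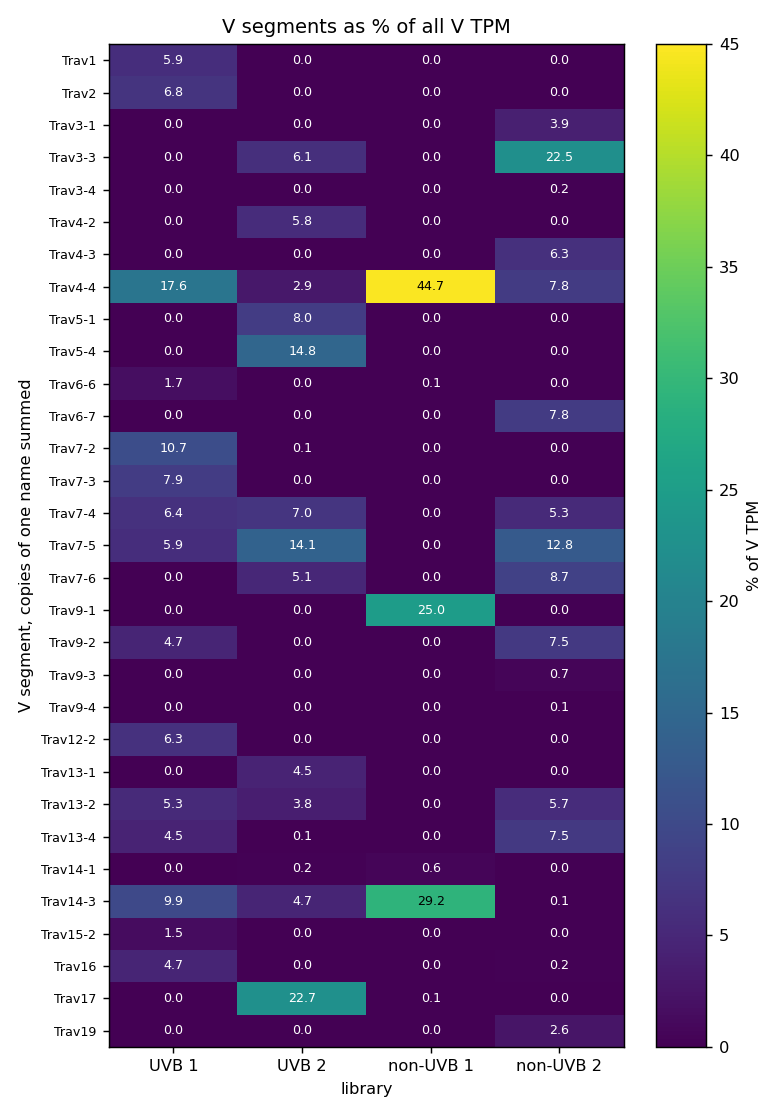
Percent of all V TPM (Trav and dv-named) by V segment with its copies summed, for the 31 V segments with 1 TPM or more in a library; rows are segments, columns are libraries, and 0.0 also stands for values that round to it. Trav4-4 is the row with at least 2.9% in every column, and 44.7% of the V signal of non-UVB replicate 1 lies in it.

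The V segments named with dv made up 15.4% and 2.13% of all V signal with UVB, against 29.0% and 14.5% without, with overlapping groups. Their summed level was 45.6 and 12.5 TPM with UVB, against 58.3 and 152 TPM without, so both UVB libraries were below both non-UVB libraries. The log2 difference was -1.98 (exact two-sided permutation p = 0.333, the smallest possible), and it stayed between -2.91 and -1.05 with any 1 library left out. The value nearest 0 was the one without UVB replicate 2, and -1.29 was that without non-UVB replicate 2. Set against Trac, the dv sum was 0.0823 and 0.0143 times its level with UVB, against 0.213 and 0.0649 times without. The groups overlapped for this ratio (exact two-sided permutation p = 0.667). The dv sum rested on few segments. Trav4-4-dv10 had 30.5 and 12.1 TPM in the UVB libraries, against 5.51 and 79.7 TPM in the non-UVB libraries, so the groups overlapped. Trav14d-3-dv8 had 0 and 0.280 TPM with UVB, against 52.8 and 0.263 TPM without. Trav6-7-dv9 had 60.6 TPM in non-UVB replicate 2 and 0 in the other 3 libraries. Trav13-4-dv7 had 10.8 and 0.145 TPM with UVB, against 0 and 11.5 TPM without, and Trav15-2-dv6-2 had 4.31 TPM in UVB replicate 1 alone. Trav16d-dv11 had 0.319 TPM in non-UVB replicate 2, and the other 4 were listed at 0 in all libraries. With all copies of a V segment counted where any copy has dv in its name, the share became 38.1% and 7.64% with UVB, against 74.0% and 23.5% without. Trdc, relative to Trac, was 2.14 and 0.0816 with UVB, against 5.08 and 0.0206 without. The part of delta chain RNA in the dv signal was not tested.

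Copies of a V segment were compared over their last 250 bases. Among the 21 pairs of copies without a difference there were 18 pair and library values with 1 TPM or more, and 15 of them were equal within 1%. Among the 30 pairs with 1 to 5 differences, 1 of 33 such values was equal, and among the 53 pairs with 6 or more differences, 0 of 47. The 3 exceptions without a difference were all in non-UVB replicate 2. There Trav6d-7 and Trav6n-7 had 11.0 and 10.7 TPM, Trav9d-2 and Trav9n-2 had 6.87 and 0.223 TPM, and Trav9d-3 and Trav9n-3 had 6.84 and 0.147 TPM. Values of identical copies are therefore read only as a sum, and those of close copies as uncertain.

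**Figure D4:**
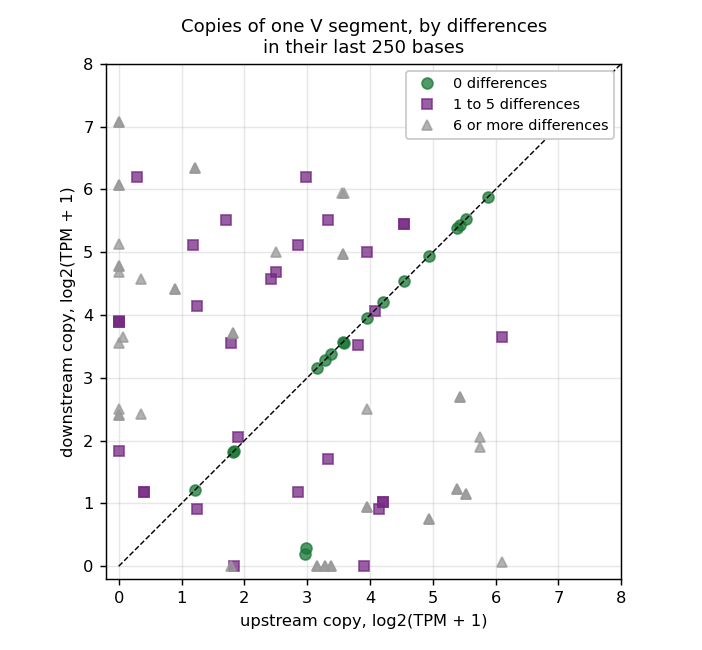
TPM, as log2(TPM + 1), of the downstream copy against the upstream copy of the same V segment, with 1 point per pair of copies and library where either had 1 TPM or more; colours and shapes give the number of differences in the last 250 bases. Of the 18 points for pairs with 0 differences, 15 lie on the dashed line of equal values, against 1 of 33 for 1 to 5 differences and 0 of 47 for 6 or more.

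The printed windows show where the signal of 3 V segments was placed among their copies. Trav7d-5 and Trav7n-5, which are identical over the bases compared and differ from Trav7-5 at 13 positions, each had 8.69 and 40.9 TPM in the UVB libraries, against 0 in both non-UVB libraries. Trav7-5 had 0 and 1.34 TPM with UVB, against 0 and 134 TPM without. The 3 copies summed to 17.4 and 83.1 TPM with UVB, against 0 and 134 TPM without, so the groups overlapped for the sum but not for Trav7d-5 and Trav7n-5. For Trav14-3 the 3 copies summed to 29.4 and 27.5 TPM with UVB, against 58.7 and 0.833 TPM without. Most of it was Trav14-3 itself in the UVB libraries, with 24.7 and 22.8 TPM there and 3.18 and 0 TPM without UVB, while non-UVB replicate 1 had 52.8 TPM at Trav14d-3-dv8. Trav4d-4 and Trav4n-4, 8 differences away from Trav4-4-dv10, had 10.8 and 2.53 TPM each with UVB, against 42.2 and 1.31 TPM without. Summed over its copies, Trav4-4 had 52.1 and 17.2 TPM with UVB, against 89.9 and 82.3 TPM without, and was the V segment above 1 TPM in every library. Both UVB sums were below both non-UVB sums, with a log2 difference on the log2(TPM + 1) scale of -1.49 ± 0.82 (SE, n = 2 each) and a limma adjusted p of 0.777.

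Most segments with signal were seen in a single library. Of the 86 segments with 1 TPM or more in any library, 53 (61.6%) had it in 1 library, 21 in 2, 8 in 3 and 4 in all 4. The 4 were Traj18, Trav4-4-dv10, Trav4d-4 and Trav4n-4. Of all 13885 genes with 1 TPM or more in any library, 25.9% had it in 1 library and 34.6% in all 4. Among those whose highest TPM lay between 5 and 134, the highest of any segment, 58.3% of 72 segments against 25.4% of 9532 genes were in a single library, and 5.56% against 27.9% were in all 4. These shares are given as a description, with no test. With copies summed, 31 V segments were detected, of which 20 were in a single library.

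Libraries were compared in pairs by the overlap of their shares, the sum over segments of the smaller of both shares, which is 100% for identical use. For Trav the 6 pairs overlapped by 0.53% to 18.7%, with a median of 13.6%, and for Traj by 16.5% to 34.6%, with a median of 25.9%. The UVB libraries overlapped with each other by 14.2% for Trav and 20.8% for Traj. The non-UVB libraries overlapped with each other by 0.53% for Trav and 30.3% for Traj. Neither group stood apart as a group, since the highest overlap in both classes, 18.7% and 34.6%, was between UVB replicate 2 and non-UVB replicate 2. With copies summed and dv included, the V overlaps ran from 8.06% to 36.3%, and the same pair was again highest. The Trav median was 4.43% without UVB replicate 1 and between 12.9% and 14.5% without any other library.

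**Figure D5:**
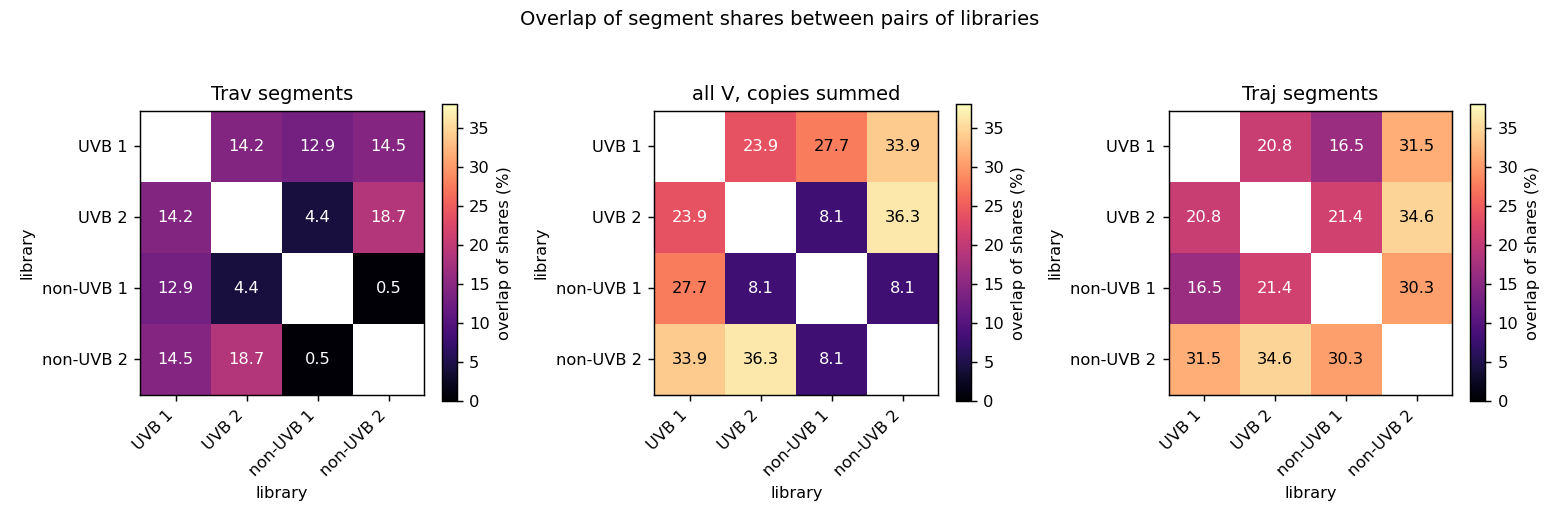
Overlap of segment shares, in percent, for each of the 6 pairs of libraries, for Trav segments, for all V segments with copies summed and for Traj segments. UVB replicate 2 with non-UVB replicate 2 is the brightest pair in all 3 panels, at 18.7%, 36.3% and 34.6%.

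The test between groups was fitted across all genes with limma on log2(TPM + 1), and asked which segments were higher or lower with UVB by more than the spread between libraries. Of the 190 segments, 33 had at least 1 TPM in at least 2 libraries and were tested (19 Trav, 2 dv and 12 Traj), and 157 were not. After Benjamini-Hochberg adjustment 0 of the 33 passed 0.05, where the background over all 10286 genes tested was 0%. At an unadjusted p under 0.05 there were 4 segments, all higher with UVB, against 11.3% of all genes, or 9.97% higher and 1.37% lower. Groups did not overlap for 6 segments that were higher with UVB and 2 that were lower, against 23.2% and 9.71% of all genes. Traj19, Trav7d-5 and Trav7n-5 count in both and were at 0 in both non-UVB libraries, so they met the filter only through the UVB libraries. Trav7d-5 and Trav7n-5 are copies without a difference over the bases compared, so their shared signal is counted there as 2 segments. Other such copies, among them Trav4d-4 and Trav4n-4, are also counted one by one among the 33. Segments at 1 TPM or more numbered 39 and 37 with UVB, against 13 and 46 without, which left the reverse pattern less room. The direction of these counts is therefore not read as a result. The median log2 difference of the 33 was -0.35, against 0.26 over all genes tested, and 14 of the 33 (42.4%) had a higher mean with UVB, against 61.0% of all genes.

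Traj19 had the smallest p among the segments. It had 17.1 and 18.2 TPM in the UVB libraries and 0 in each non-UVB library (limma unadjusted p = 0.00709, adjusted p = 0.223). Trav7d-5 and Trav7n-5, given above with their copies, came next with the same values as each other and a limma adjusted p of 0.252. The last of the 4, Trav14-3, had a log2 difference of 3.60 ± 1.27 (SE, n = 2 each) and a limma adjusted p of 0.435. With the copies of each V segment summed before the fit, 23 were tested, 0 passed the adjusted threshold, and Traj19 was the 1 left with an unadjusted p under 0.05. Traj19, Trav7d-5 and Trav7n-5 met the filter only through the UVB libraries, where they were high. Their p-values above are therefore not read as support for a difference. Traj27 and Trav14n-3 were the other 2 that did not overlap upwards, Traj27 with 6.91 and 54.2 TPM with UVB against 0 and 2.90 TPM without.

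In the other direction, the segments without overlap were Traj17 and Traj2. Traj17 had 13.1 and 0.389 TPM in the UVB libraries, against 16.5 and 59.5 TPM in the non-UVB libraries, a log2 difference of -2.88 ± 1.70 (SE, n = 2 each) with a limma adjusted p of 0.820. Traj2, the J segment nearest Trac among those with signal, had 0 and 26.1 TPM with UVB, against 42.1 and 55.7 TPM without, a log2 difference of -3.25 ± 1.96 with a limma adjusted p of 0.830. Trav3-3, next by p among those lower on average, had 0 and 1.04 TPM with UVB against 0.033 and 120 TPM without, so it rested on non-UVB replicate 2 (limma adjusted p = 0.972). None of these differences passed the test.

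The wider machinery was described from lists of related genes. Of the 4 CD3 and zeta chain genes that carry the receptor to the cell surface, 4 were tested and 0 passed in either direction. CD3 gamma (Cd3g) had 2701 and 848 TPM in the UVB libraries, against 2560 and 968 TPM in the non-UVB libraries. The beta constant genes were at 809 and 462 TPM with UVB against 1386 and 830 TPM without for Trbc1, and at 910 and 1026 TPM against 1418 and 1405 TPM for Trbc2. Of 6 alpha-beta genes 4 were tested and 0 passed, with Cd4 at 33.9 and 71.6 TPM with UVB against 6.02 and 138 TPM without, and Cd8a at 0 in all 4. Of 13 genes of recombination and immature thymocytes, 5 were tested and 0 passed. An unadjusted limma p under 0.05 was seen for 2 of the 5, against 11.3% of all genes tested. These were the end-joining factor Xrcc6, with 20.9 and 14.2 TPM with UVB against 0 and 0.277 TPM without, and the DNA-dependent kinase Prkdc, with 0 and 0.351 TPM against 16.3 and 9.24 TPM, each with a limma adjusted p of 0.223. Each met the filter only through the group where it was high, so these p-values are not read as support for a difference. As 0 of all 10286 genes passed, counts of 0 in these lists say nothing particular about them. The recombinase genes Rag1 and Rag2, the terminal transferase Dntt and the pre-receptor chain Ptcra were listed at 0 in all 4 libraries.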

How the data were processed

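An ultra-low-input SMARTer kit and single-end reads of 100 bp were used, per the labels' protocols. HISAT2, StringTie, DESeq2 and GRCm38 (mm10) are named per the submitters' processing notes. The strand setting and annotation version are not stated there, and reads of overlapping or antisense genes cannot be told apart. Per the file headers, the authors deposited TPM, FPKM and coverage (mean read depth) per gene and library. Shares are percentages of the TPM of a class within a library. All 190 IDs matched GENCODE M21 with the same coordinates. Between 5 and 14 segments per library had a TPM over 1% away from what their coverage gives, up to 1.68 times, so results were repeated from coverage.

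Genes with 1 TPM in 2 of 4 libraries were fitted with limma 3.58.1 (R 4.3.3, intensity trend, log2(TPM + 1), which understates changes of low genes). The fit was tried on simulated data with a smaller spread than these libraries have, which does not show its power here. Class values had exact permutation tests in Python 3.11.15. Sequence differences came from edlib 1.3.9.post1. Named were the 3 leading segments per class and library, those with 5% of a class, those with 1% in all 4, invariant-chain segments, and up to 3 per direction by p. Alternatives were other units, pseudocounts, filters, summed copies, a replicate block and libraries left out. Members, lists and tests were chosen with earlier results of these data known. Whole reads were not recovered, so no counting interval is given.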

Additional observations from a re-analysis of the deposited data

How the results depend on the processing

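Leaving out each library in turn gave the following lowest and highest UVB minus non-UVB values. They were -1.24 and 1.42 for the log2 summed Trav level, -1.30 and 1.67 for Traj and -2.91 and -1.05 for dv. They were 1.73 and 10.1 for the effective number of Trav segments and -2.66 and 4.96 for Traj. The top Trav share ran from -13.1 to 1.54 points, the top Traj share from -20.9 to 4.24 points, the Traj61 to Traj42 share from -10.7 to 0.14 points and the pseudogene share from -10.2 to -3.13 points. The median overlap ran from 4.43% to 14.5% for Trav and from 20.8% to 31.5% for Traj. Means of TPM also turned the sign of the Trav and Traj sums, to -106 and -108 TPM. Among the other settings (coverage, FPKM, segments at 1 TPM, copies summed, dv included) directions stayed. The top Trav share became -24.9 points with copies summed and -3.06 points with dv included, the log2 Trav sum became 0.03 from bases of reads, and at an unadjusted p under 0.05 there were 4 segments in place of 0. Segments called stayed at 0 in all 11 limma alternatives, with a smallest adjusted p of 0.136, without the intensity trend. A library left alone in its group was taken to vary as the other group does.

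The labels do not say what equal replicate numbers share. Deviations of same-numbered libraries correlated at 0.165 over genes and 0.120 over segments. With a replicate block limma called 0 segments, and 4 had an unadjusted p under 0.05. UVB minus non-UVB was 13.7 and -1.94 for the effective number of Trav segments in numbers 1 and 2, and 6.46 and -4.16 for Traj. Depth limits low segments, since TPM of 1.11 to 1.84 is a mean depth of 3.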
